A study of Macaca mulatta with 8 samples.

Results

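LHX6 nuclei without SST or LAMP5 were the nuclei with at least 500 UMIs and 300 genes that carried at least 2 UMIs of GAD1 plus GAD2, at least 1 UMI of LHX6, no UMI of SST, LAMP5 or SLC17A7, and fewer than 5 UMIs of ADARB2. A UMI is a unique molecular identifier and stands for 1 captured RNA molecule. The gate held 806 nuclei, 1.38% of the 58220 nuclei that passed the UMI and gene minimum and were taken from 59749 in all. They were chosen by these measured UMI values, so the levels of the gate's own genes are no finding. They are called LHX6 nuclei below. LHX6 is a transcription factor of interneurons born in the medial ganglionic eminence, a transient progenitor zone of the embryonic brain, and it stays on after these cells settle. In the adult forebrain most of its descendants make either parvalbumin or somatostatin, and a further group carries LAMP5. Parvalbumin cells include basket cells, which contact cell bodies, and chandelier cells, which contact the start of the axon. ERBB4, the receptor for neuregulins, and NXPH1, a secreted ligand of neurexins, are widely used markers of this lineage, although ERBB4 is also made by many interneurons born elsewhere.

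Nuclei were isolated from frozen tissue of male rhesus macaques and read with droplet-based 3' sequencing of the 10x Genomics v3 chemistry. The sevoflurane group was 1 male that breathed the anaesthetic gas at about 2.5 to 3% for 4 h on 3 occasions, first near postnatal day 7, with the other occasions given as 14 and 28 days in wording that does not tell ages from intervals. The control group was 2 males. Tissue was mixed within each group and divided into 4 samples, so samples of a group are portions of 1 pool and not separate animals. The labels name the hippocampus as the tissue, but the growth protocol names the amygdala, and the age at collection is not given in the sources used here.

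The study set sevoflurane against control across the cell types of this tissue. No source used here ties the 8 barcode suffixes, called libraries 1 to 8 below, to the 8 samples. Sevoflurane was therefore not compared with control, all nuclei count as 1 sample, and no p-value was computed. Libraries gave 35806547 to 47007082 UMIs each. Libraries 1 to 4 had median depths of 3189 to 3426 UMIs per nucleus and libraries 5 to 8 of 6078 to 6326. Of the distinct barcodes, 429 occurred in more than 1 library (860 nuclei, 1.44%). Among the LHX6 nuclei 14 had a barcode that was also in another library, and none shared one with another LHX6 nucleus. Intervals in parentheses are exact 95% intervals that cover counting error only.

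Libraries 1 to 8 held 52, 50, 55, 74, 147, 158, 144 and 126 LHX6 nuclei. These were 0.646%, 0.609%, 0.568%, 0.771%, 2.52%, 2.63%, 2.56% and 2.41% of the kept nuclei. The values of libraries 1 to 4 did not overlap with those of libraries 5 to 8. When every nucleus was first thinned to 3000 UMIs, with shallower nuclei left out, 409 nuclei passed the gate. Their share was then 0.358% to 0.609% in libraries 1 to 4 and 1.62% to 1.99% in libraries 5 to 8 and still did not overlap. Other gated populations differed between the same libraries. ADARB2 nuclei were 1.83% to 3.19% of kept nuclei in libraries 1 to 4 and 7.44% to 7.69% in libraries 5 to 8. SST nuclei were 0.979% to 1.73% in libraries 1 to 4 and 2.11% to 2.40% in libraries 5 to 8. As a share of LHX6, SST, LAMP5 LHX6 and ADARB2 nuclei together, defined below, LHX6 nuclei were 10.8% to 14.6% in libraries 1 to 3, 20.5% in library 4 and 18.5% to 20.7% in libraries 5 to 8, so library 4 overlapped with libraries 5 to 8. An SST UMI, which removes a nucleus from the gate, was found in 14.97% to 21.7% of excitatory nuclei in libraries 1 to 4 and in 4.95% to 7.04% in libraries 5 to 8, and its part in these shares was not tested. LHX6 nuclei themselves had a median of 7058 UMIs and 3045 genes, and per library their median was lowest at 6491.5 and highest at 8740 UMIs.

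**Figure D1:**
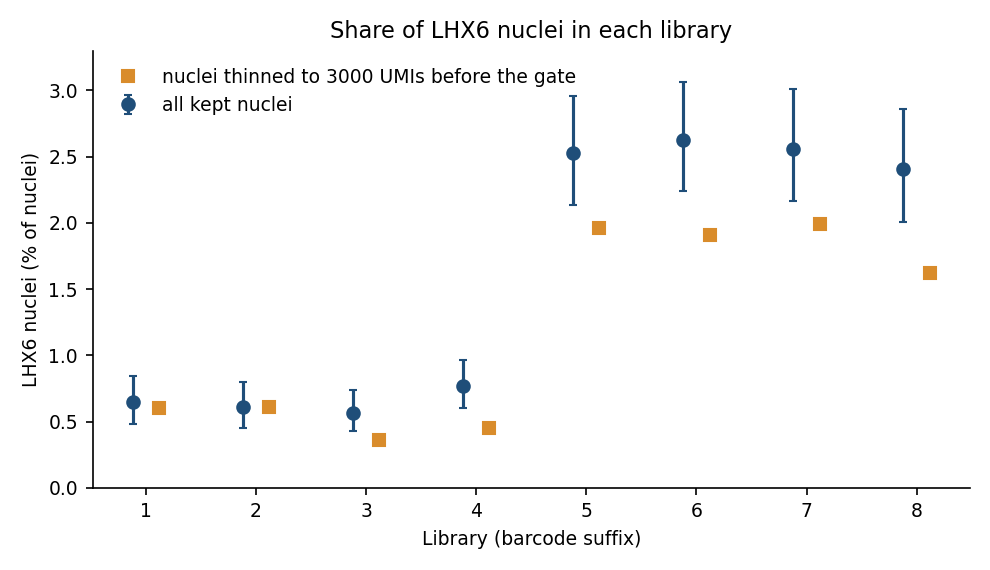
LHX6 nuclei as a percentage of nuclei in each of the 8 libraries (horizontal axis). Circles give all kept nuclei with exact 95% intervals and squares give the share after thinning to 3000 UMIs; libraries 1 to 4 lie at 0.568% to 0.771% and libraries 5 to 8 at 2.41% to 2.63% before thinning.

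The gate rests on few molecules. Among its nuclei, 460 carried 1 LHX6 UMI, 236 carried 2 and 110 carried 3 or more. Just outside, 826 nuclei met every other condition but had no LHX6 UMI, and they held NXPH1 at 2653 UMIs per 1000000 (CPM) and ERBB4 at 9032 CPM. Another 222 nuclei missed the gate for 1 SST UMI, 65 for 1 LAMP5 UMI, and 4 for 5 ADARB2 UMIs against 7 nuclei kept with 4. On the GAD condition 118 nuclei passed at the limit of 2 UMIs and 115 failed with 1. SST UMIs were also found in 10.5% of excitatory nuclei (at least 2 SLC17A7 UMIs and no GAD), a class that should lack it, with 4.95% to 21.7% per library at a median depth of 10632 UMIs. An LHX6 UMI was found in 0.233% to 0.843% of excitatory nuclei per library.

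For comparison, 3 other populations were gated with the same UMI, gene, GAD and SLC17A7 conditions. SST nuclei (992) had at least 1 SST UMI, no LAMP5 and fewer than 5 ADARB2 UMIs. LAMP5 LHX6 nuclei (198) had both LAMP5 and LHX6 and no SST. ADARB2 nuclei (2591) had at least 5 ADARB2 UMIs and no LHX6. LHX6 was found in 53.7% of the SST nuclei, and 451 SST nuclei had a single SST UMI. Median depths were 7058 UMIs in LHX6 nuclei, 7126 in SST nuclei, 6537.5 in LAMP5 LHX6 nuclei and 5527 in ADARB2 nuclei. A gene was called when pooled CPM differed at least 2-fold, the higher population reached 10 CPM, and each library holding 50 or more nuclei of the 2 populations pointed the same way. Genes of the gate were left out. All 8 libraries served for SST and ADARB2 nuclei. No library had 50 LAMP5 LHX6 nuclei (9 to 41), so calls against them rest on pooled fold alone.

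PVALB, the calcium-binding protein parvalbumin, was detected in few LHX6 nuclei. It was found in 18 of 806 LHX6 nuclei (2.23%, 1.33% to 3.51%), with 20 UMIs in all or 3.29 CPM (2.01 to 5.08). Libraries 1 to 8 had 2, 0, 5, 6, 1, 2, 0 and 2 such nuclei. Per-library levels ran from 0 to 11.6 CPM with a median of 2.59 CPM, and libraries 3 and 4 were highest. The share was 1.01% (0.484% to 1.85%) in SST nuclei, 0.154% in ADARB2 nuclei, 0.101% in excitatory nuclei and 0.293% in oligodendrocyte nuclei (at least 3 MOBP UMIs). None of 198 LAMP5 LHX6 nuclei had it, which allows a share of up to 1.52%. After thinning to 3000 UMIs the share was 0.758% (0.279% to 1.64%) in LHX6 nuclei, 0.208% in SST nuclei and 0 of 3835 in excitatory nuclei. The LHX6 share lay above that of excitatory and ADARB2 nuclei, and its interval overlapped that of SST nuclei. Before thinning its lower limit of 1.33% was also under the 1.52% bound for LAMP5 LHX6 nuclei. Across all kept nuclei PVALB had 195 UMIs in 181 nuclei. Of 48 PVALB-positive GAD nuclei without SLC17A7, 18 were LHX6 nuclei and 10 were SST nuclei. Of the same 48, 23 had no LHX6 UMI, a count that overlaps with the SST nuclei, whose gate does not require LHX6. Parvalbumin-type interneurons were looked for in this gate, and at this depth most of its 806 nuclei had no PVALB UMI, so no cell type name is given to them.

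The other lineage markers were strong. NXPH1 was found in 99.8% of LHX6 nuclei, at 3295 CPM, and its library values ran from 3009 to 3455 CPM with a median of 3296 CPM. It reached 2892 CPM in SST nuclei (2500.4 to 3085 over libraries), 3001 CPM in LAMP5 LHX6 nuclei, 653 CPM in ADARB2 nuclei (547.9 to 764.1) and 26.1 CPM in excitatory nuclei. LHX6 nuclei thus lay 5.05-fold (4.93 to 5.17) above ADARB2 nuclei without overlap, and 1.14-fold above SST nuclei. ERBB4 stood at 10867 CPM in LHX6 nuclei (9125 to 12235 over libraries), against 3708 CPM in SST nuclei (2608 to 4149.9), 10491 CPM in LAMP5 LHX6 nuclei, 9218 CPM in ADARB2 nuclei and 128 CPM in excitatory nuclei. The excess over SST nuclei was 2.93-fold (2.89 to 2.97), was present in each of the 8 libraries, and widened to 5.23-fold when SST nuclei were limited to those with at least 3 SST UMIs and LHX6. Against ADARB2 nuclei ERBB4 differed by 1.18-fold, and against LAMP5 LHX6 nuclei by 1.04-fold, both below the 2-fold limit.

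**Figure D2:**
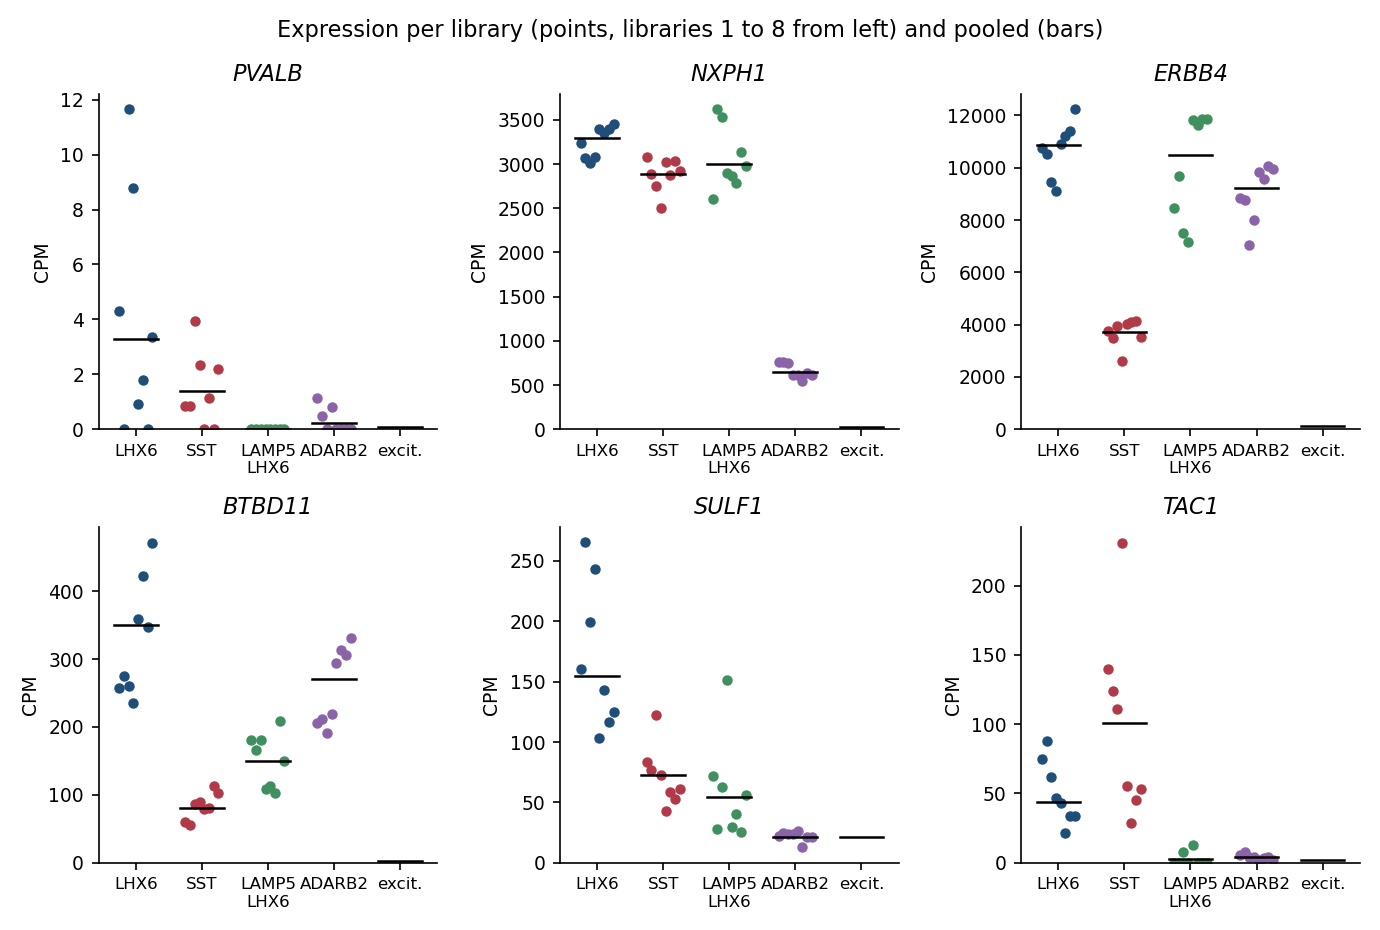
Expression in CPM (vertical axes) of 6 genes in LHX6 nuclei and 4 other populations. Points are libraries 1 to 8 from left to right, bars are the pooled value, and excitatory nuclei have the bar only; PVALB stays below 12 CPM everywhere, and ERBB4 in LHX6 nuclei lies above SST nuclei in every library.

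Against SST nuclei, 127 genes were higher in LHX6 nuclei (1.36% of 9332 tested) and 108 were lower (1.16%), and the median log2 ratio over all genes was 0.00. Of 9 basket-cell markers, 6 were tested, 2 were higher and 1 was lower, with a median log2 ratio of 0.74. BTBD11, a scaffold protein at excitatory synapses onto interneurons, had 349.5 CPM in LHX6 nuclei and 80.9 CPM in SST nuclei (4.32-fold, 3.95 to 4.73). Library values of BTBD11 were 257.5, 275.3, 260.0, 235.7, 359.6, 422.7, 346.7 and 471 CPM in LHX6 nuclei, against 55.6 to 112.5 CPM in SST nuclei, and the populations did not overlap. SULF1, an enzyme that trims heparan sulfate outside the cell, had 155 CPM in LHX6 nuclei and 72.6 CPM in SST nuclei (2.13-fold); its libraries overlapped and the fold fell under 2 without library 4 (log2 0.99). TAC1, the precursor of substance P, was lower, at 43.9 CPM in LHX6 nuclei and 101 CPM in SST nuclei. That call was also lost without library 4 (log2 -0.96), with libraries weighted equally (log2 -0.96) and with no ADARB2 UMI allowed (log2 -0.98). With at least 4 GAD UMIs it was lost because not every library checked was lower (log2 -1.49). MYO5B, a myosin motor, was not called, at 133 CPM in LHX6 nuclei and 130.5 CPM in SST nuclei.

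Of 20 channel genes linked to fast spiking, 14 were tested and 1 was higher, with a median log2 ratio of 0.41. KCNAB1, an auxiliary subunit of Kv1 potassium channels, had 706 CPM in LHX6 nuclei and 253 CPM in SST nuclei (2.79-fold). KCNC2, the Kv3.2 channel that lets a neuron repolarise quickly, had 3323 CPM in LHX6 nuclei and 1841 CPM in SST nuclei, 1.81-fold and under the limit. Of 12 genes linked to the perineuronal net, the matrix shell around many parvalbumin cells, 8 were tested and 1 was higher. That gene was ADAMTS17, a secreted metalloprotease, with 165 CPM in LHX6 nuclei and 73.4 CPM in SST nuclei. ACAN, the core protein aggrecan of the net, had 3.45 CPM in LHX6 nuclei and 0.641 CPM in SST nuclei. Both values were under the limit of 10 CPM, so ACAN was not tested. The calcium-binding gene CALN1 had 722 CPM in LHX6 nuclei and 247 CPM in SST nuclei (2.93-fold). Of 12 tested GABA-A receptor subunits 2 were higher and none lower. GABRD, the delta subunit of these receptors, had 67.9 CPM in LHX6 nuclei and 20.01 CPM in SST nuclei (3.39-fold, 2.81 to 4.10). Of 43 tested adhesion and guidance genes 4 were higher and 4 lower. PLXNA4, a semaphorin coreceptor, had 548 CPM in LHX6 nuclei and 214 CPM in SST nuclei.

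Over all genes the largest folds in this direction included NPSR1, the neuropeptide S receptor, with 58.8 CPM in LHX6 nuclei and 8.08 CPM in SST nuclei (7.28-fold, 5.56 to 9.67, and 11.4-fold without library 1). POSTN, the matrix protein periostin, had 161 CPM in LHX6 nuclei (87.2 to 341 over libraries) and 31.3 CPM in SST nuclei (6.63 to 58.1). CEMIP, which breaks down hyaluronan, had 266 CPM in LHX6 nuclei and 60.9 CPM in SST nuclei. Of 7 chandelier-cell markers 3 were tested, and 1 was higher: the netrin receptor UNC5B had 29.3 CPM in LHX6 nuclei and 7.06 CPM in SST nuclei. Of 5 tested LAMP5 LHX6 markers 2 were higher. KIT, the stem cell factor receptor, had 19.9 CPM in LHX6 nuclei and 8.47 CPM in SST nuclei, a call lost with at least 2 LHX6 UMIs (log2 0.75). SV2C, a synaptic vesicle protein, was just over 2-fold (log2 1.04), and its call was lost under 5 alternatives, with log2 ratios of 0.69 to 0.98.

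Of 8 SST-interneuron markers, 5 were tested and 3 were lower in LHX6 nuclei, with a median log2 ratio of -1.09. SST itself is set by the gate. NPY, neuropeptide Y, had 5.42 CPM in LHX6 nuclei and 80.9 CPM in SST nuclei, 14.9 times less. With at least 4 GAD UMIs its log2 ratio was -4.20, but not every library checked was lower and the call was lost. ELFN1, a synaptic protein that shapes glutamate release onto SST cells, had 19.2 CPM in LHX6 nuclei and 50.9 CPM in SST nuclei. CACNA2D3, an auxiliary calcium channel subunit, had 552 CPM in LHX6 nuclei (178 to 706 over libraries) and 1683 CPM in SST nuclei (1427 to 2192). Of 22 tested synaptic release genes 1 was higher and 2 were lower. UNC13C, a vesicle priming protein, had 148 CPM in LHX6 nuclei and 388 CPM in SST nuclei. NECAB1, a calcium-binding protein, had 74.6 CPM in LHX6 nuclei and 165 CPM in SST nuclei. The cadherin CDH18 had 124 CPM in LHX6 nuclei and 332 CPM in SST nuclei. Against the 208 SST nuclei with at least 3 SST UMIs and LHX6, an alternative added after the data were seen, the folds were 10.6 for BTBD11, 4.13 for SULF1, 4.67 for KCNAB1, 6.96 for CALN1, 10.7 for GABRD, 4.28 for PLXNA4, 12.1 for NPSR1, 14.4 for POSTN, 10.7 for CEMIP and 6.68 for UNC5B. NPY was then 35.3 times lower and TAC1 3.93 times lower. SOX6 and SATB1, transcription factors of the medial ganglionic eminence lineage, were not called: SOX6 had 504 CPM in LHX6 nuclei and 599 CPM in SST nuclei, and SATB1 had 400.2 CPM in LHX6 nuclei and 408 CPM in SST nuclei.

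Against LAMP5 LHX6 nuclei, 454 genes were higher in LHX6 nuclei (4.76% of 9547 tested) and 424 were lower (4.44%), with a median log2 ratio of 0.01 over all genes. The gates of these populations differ in LAMP5 and in the ADARB2 limit, and LHX6 itself was at 215 CPM in LHX6 nuclei and 229.8 CPM in LAMP5 LHX6 nuclei. Of 6 tested basket-cell markers 5 were higher and none lower, with a median log2 ratio of 1.46. Of 5 tested SST-interneuron markers 3 were higher and 2 lower (median 1.40), and of 5 tested chandelier-cell markers none was higher and 1 was lower (median -0.35). TAC1 had 43.9 CPM in LHX6 nuclei and 2.92 CPM (4 UMIs) in LAMP5 LHX6 nuclei, 15.04-fold (5.80 to 55.6), which became 49.97-fold without library 5 and 8.85-fold with at least 2 LHX6 UMIs. MYO5B had 133 CPM in LHX6 nuclei and 15.3 CPM in LAMP5 LHX6 nuclei (8.70-fold, 5.65 to 14.1). SATB1 had 400.2 CPM in LHX6 nuclei and 51.8 CPM in LAMP5 LHX6 nuclei, and SOX6 had 504 CPM in LHX6 nuclei and 183 CPM in LAMP5 LHX6 nuclei. GRIK3, a kainate receptor subunit, had 384 CPM in LHX6 nuclei and 31.4 CPM in LAMP5 LHX6 nuclei (12.2-fold). ADAMTS17 had 165 CPM in LHX6 nuclei and 20.4 CPM in LAMP5 LHX6 nuclei (8.08-fold, and 5.09-fold with at least 2 LHX6 UMIs). CRHBP, which binds corticotropin-releasing hormone, had 63.3 CPM in LHX6 nuclei and 5.11 CPM in LAMP5 LHX6 nuclei, 12.4-fold, and 22.5-fold without library 5 or 6.04-fold with at least 2 LHX6 UMIs. PPARGC1A, a coactivator of mitochondrial genes, had 127 CPM in LHX6 nuclei and 20.4 CPM in LAMP5 LHX6 nuclei.

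On the lower side, 4 of 6 tested LAMP5 LHX6 markers were called, with a median log2 ratio of -2.60. KIT had 19.9 CPM in LHX6 nuclei and 169 CPM in LAMP5 LHX6 nuclei. SV2C had 39.9 CPM in LHX6 nuclei and 355 CPM in LAMP5 LHX6 nuclei. EGFR, the epidermal growth factor receptor, had 25.6 CPM in LHX6 nuclei and 208 CPM in LAMP5 LHX6 nuclei. GRIN2A, an NMDA receptor subunit, had 539 CPM in LHX6 nuclei and 2887 CPM in LAMP5 LHX6 nuclei (5.36 times less). CACNA2D1 had 137 CPM in LHX6 nuclei and 955 CPM in LAMP5 LHX6 nuclei. HTR2C, a serotonin receptor, had 74.6 CPM in LHX6 nuclei and 507 CPM in LAMP5 LHX6 nuclei. TNR, the net protein tenascin-R, had 319 CPM in LHX6 nuclei and 856 CPM in LAMP5 LHX6 nuclei.

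Against ADARB2 nuclei, which stand for interneurons mostly born in the caudal ganglionic eminence, 253 genes were higher in LHX6 nuclei (2.67% of 9463 tested) and 365 were lower (3.86%), with a median log2 ratio of 0.00 over all genes. Of 13 tested ganglionic eminence transcription factors 3 were higher and 2 lower. SATB1 had 400.2 CPM in LHX6 nuclei (317.5 to 572.4 over libraries) and 54.5 CPM in ADARB2 nuclei (39.4 to 65.2). SOX6 had 504 CPM in LHX6 nuclei (409.1 to 708.9) and 85.9 CPM in ADARB2 nuclei (57.5 to 144.6). Neither gene's libraries overlapped between the populations. PBX3, a homeobox factor, was lower, with 13.0 CPM in LHX6 nuclei and 142 CPM in ADARB2 nuclei. Of 7 tested basket-cell markers 5 were higher and none lower, with a median log2 ratio of 1.61. SULF1 had 155 CPM in LHX6 nuclei and 21.7 CPM in ADARB2 nuclei (7.14-fold). TAC1 had 43.9 CPM in LHX6 nuclei and 4.00 CPM in ADARB2 nuclei. KCNS3, a modulatory potassium channel subunit, had 29.4 CPM in LHX6 nuclei and 9.65 CPM in ADARB2 nuclei. BTBD11 (log2 0.37) and SYT2 (log2 -0.48) were tested and not called. The KCNC1 call (log2 1.04) was lost with at least 4 GAD UMIs and without library 1, library 3 or library 8 (log2 0.984 to 0.999).

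The list of channel genes linked to fast spiking had 14 genes tested, 3 higher and 1 lower, which was KCNQ5 (log2 -1.36). KCNC2 was called higher here, with 3323 CPM in LHX6 nuclei (2902 to 4129 over libraries) and 1484 CPM in ADARB2 nuclei (1317 to 1694). Ionotropic glutamate receptor genes had 17 tested, 4 higher and 1 lower, which was GRIN2A (log2 -1.40). GRIA1, an AMPA receptor subunit, had 2563 CPM in LHX6 nuclei and 1161 CPM in ADARB2 nuclei. GRIK3 had 384 CPM in LHX6 nuclei and 44.4 CPM in ADARB2 nuclei. Adhesion and guidance genes had 43 tested, 5 higher and 7 lower. SLIT2, an axon guidance ligand of ROBO receptors, had 847 CPM in LHX6 nuclei and 173 CPM in ADARB2 nuclei (4.88-fold). Synaptic release genes had 23 tested, 2 higher and 2 lower. CPLX1, a complexin of vesicle release, had 87.8 CPM in LHX6 nuclei and 15.9 CPM in ADARB2 nuclei. Perineuronal net genes had 8 tested, 1 higher and 1 lower, with a median log2 ratio of -0.31. The higher gene was ADAMTS5 (log2 2.48) and the lower was VCAN (log2 -2.14). The ADAMTS5 call was lost with at least 4 GAD UMIs, where it had 8.76 CPM in LHX6 nuclei. POSTN had 161 CPM in LHX6 nuclei and 3.64 CPM in ADARB2 nuclei (44.3-fold, 34.1 to 58.5). MME, the peptidase neprilysin, had 33.4 CPM in LHX6 nuclei and 0.728 CPM in ADARB2 nuclei.

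Of 12 ADARB2-interneuron markers, 9 were tested and 8 were lower, with a median log2 ratio of -3.64. CALB2, calretinin, had 4.44 CPM in LHX6 nuclei and 94.5 CPM in ADARB2 nuclei. VIP, vasoactive intestinal peptide, had 0.657 CPM (4 UMIs) in LHX6 nuclei and 27.5 CPM in ADARB2 nuclei, 41.8 times less, and 25.7 times less with at least 2 LHX6 UMIs or 21.4 times less with at least 4 GAD UMIs. CNR1, the CB1 cannabinoid receptor, had 57.5 CPM in LHX6 nuclei and 749 CPM in ADARB2 nuclei. RELN, reelin, named here after its values were seen, had 152 CPM in LHX6 nuclei and 1546 CPM in ADARB2 nuclei. NDNF, a secreted neurotrophic protein, had 0.657 CPM (4 UMIs) in LHX6 nuclei and 42.0 CPM in ADARB2 nuclei, 64.0 times less, and 118 times less with at least 2 LHX6 UMIs. EGFR had 25.6 CPM in LHX6 nuclei and 344 CPM in ADARB2 nuclei.

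**Figure D3:**
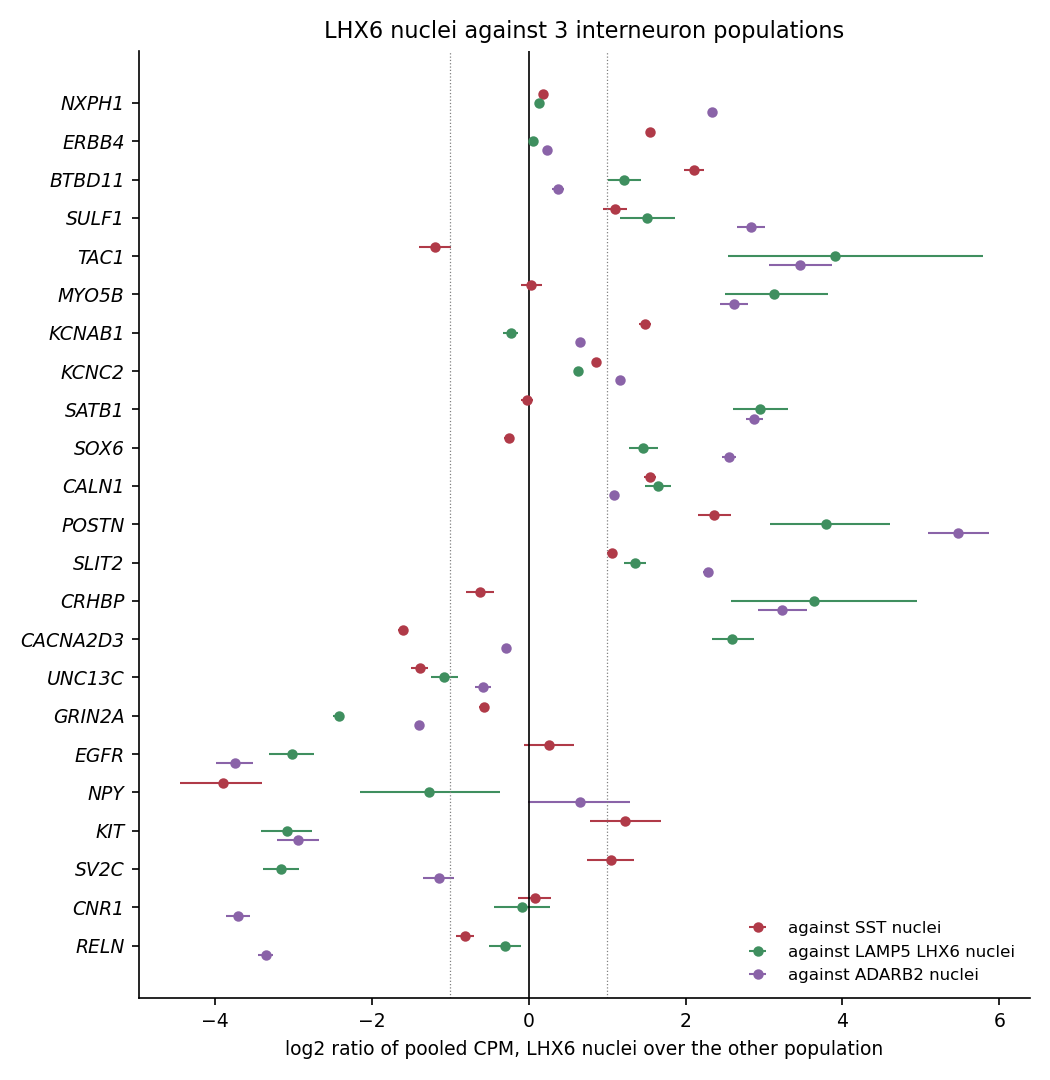
Log2 ratio of pooled CPM in LHX6 nuclei over SST, LAMP5 LHX6 and ADARB2 nuclei (horizontal axis) for 23 genes, with exact 95% intervals that cover counting error only. Dotted lines mark 2-fold; CALN1, POSTN and SLIT2 are right of 1 in all 3 comparisons, and KIT is left of -1 against LAMP5 LHX6 and ADARB2 nuclei but right of 1 against SST nuclei, where the call was lost with at least 2 LHX6 UMIs.

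The 3 comparisons share the LHX6 nuclei, so overlap of their calls is given as a count only. In all 3, 29 genes were higher and 5 were lower. The higher set held CALN1, POSTN, SLIT2, SULF1 and EYS, a gene best known from photoreceptors, at 1269.6 CPM in LHX6 nuclei, 615 CPM in SST nuclei, 217 CPM in LAMP5 LHX6 nuclei and 129 CPM in ADARB2 nuclei. It also held RYR1, a calcium release channel, at 141 CPM in LHX6 nuclei and 44.3 to 47.3 CPM in the other populations. The lower 5 were HS3ST5, NEDD4L, RASGEF1B, SCG2 and SLC24A4. SCG2, a secretory granule protein, had 25.1 CPM in LHX6 nuclei, 82.0 CPM in SST nuclei, 63.5 CPM in LAMP5 LHX6 nuclei and 79.4 CPM in ADARB2 nuclei. CALN1 came just under 2-fold against ADARB2 nuclei without library 3. The SULF1 call against SST nuclei was lost without library 4 (log2 0.99). Close to the 2-fold limit against SST nuclei were EYS (log2 1.05), SLIT2 (log2 1.06) and RASGEF1B (log2 -1.06). EYS, RYR1 and the lower 5 were chosen for naming after their values were seen.

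Markers of other cell types were low but not absent. The summed level of 6 oligodendrocyte markers was 265 CPM in LHX6 nuclei (41.5 to 825 over libraries), 354 CPM in SST nuclei, 276 CPM in LAMP5 LHX6 nuclei and 310.4 CPM in ADARB2 nuclei. For 6 astrocyte markers it was 274 CPM in LHX6 nuclei, 314 CPM in SST nuclei, 248 CPM in LAMP5 LHX6 nuclei and 543 CPM in ADARB2 nuclei. For 6 microglial markers it was 45.5 CPM in LHX6 nuclei, 39.0 CPM in SST nuclei, 69.3 CPM in LAMP5 LHX6 nuclei and 41.1 CPM in ADARB2 nuclei; AIF1 was at 0 in all 4 and the other 5 had UMIs in each. Among them PTPRC was called higher against ADARB2 nuclei, at 14.1 CPM in LHX6 nuclei and 4.49 CPM in ADARB2 nuclei. With at least 2 LHX6 UMIs (log2 1.55) and without subcluster 9, described below (log2 1.56), the PTPRC call was lost. In both settings not every library checked was higher. P2RY12 was called lower against LAMP5 LHX6 nuclei, at 19.9 CPM in LHX6 nuclei and 42.3 CPM in LAMP5 LHX6 nuclei. The P2RY12 call was lost with at least 2 LHX6 UMIs (log2 -0.52). Calls were repeated without the 47 LHX6 nuclei marked as doublets and without the marked nuclei of the other populations. Against SST nuclei 131 genes were then higher and 117 lower, and against ADARB2 nuclei 282 and 413. Only 6 libraries were checked in these 2 comparisons instead of 8, so their calls rest on fewer conditions. Against LAMP5 LHX6 nuclei, where no library could be checked, 459 genes were higher and 441 lower. The part of these markers in single genes was not tested.

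The LHX6 nuclei were not uniform. Leiden clustering of them gave 9 subclusters of 56 to 129 nuclei. The genes that define them follow from the clustering and are given as a description, with no test, and none was given a cell type name. ERBB4 divided them: it was at 10911 to 16285 CPM in subclusters 1, 3, 4, 5, 6 and 8, at 8944 CPM in subcluster 9, and at 2500.2 and 2539.7 CPM in subclusters 2 and 7. NXPH1 varied less, from 2241 CPM in subcluster 6 to 4249.7 CPM in subcluster 3.

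The summed level of the basket-cell list was 1563 CPM in subcluster 5, 1239.7 CPM in subcluster 1 and 976 CPM in subcluster 3, and 239 to 898 CPM in the others. Subcluster 1 (129 nuclei) led with AKAIN1 and RGS5, a regulator of G-protein signalling at 230.5 CPM, and had SULF1 at 294 CPM and MYO5B at 316 CPM. Subcluster 3 (100 nuclei) led with COL2A1 and HMGA2, and held 9 of the 18 PVALB-positive nuclei (9% of it, 4.198% to 16.4%), with TAC1 at 109.8 CPM. Subcluster 5 (91 nuclei) led with VIPR2, a receptor for VIP, and IQGAP2, and had BTBD11 at 899 CPM. It occurred in libraries 5 to 8 only, with 25, 30, 19 and 17 nuclei, and in no LHX6 nucleus of libraries 1 to 4. At a clustering resolution of 0.3, 90 of its 91 nuclei joined all 129 of subcluster 1 in 1 cluster of 220, so it was no longer separate. At a resolution of 1.0 90 of them formed a cluster of their own. Subcluster 1 supplied 5 PVALB-positive nuclei, and subclusters 5 and 6 supplied 2 each.

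Subcluster 4 (95 nuclei) led with TH, tyrosine hydroxylase, at 22.7 CPM in 11.6% of its nuclei, and DDC, the next enzyme of dopamine synthesis, at 39.4 CPM. Both were at 1.29 CPM or less in the other LHX6 nuclei. Subcluster 6 (89 nuclei) had 5 of 7 chandelier-cell markers at 2-fold or more over the other LHX6 nuclei. VIPR2, also on the chandelier-cell list, was lowest in subcluster 6, at 2.79 CPM, and highest in subcluster 5, at 33.8 CPM. Subcluster 6 also had 4 of 7 LAMP5 LHX6 markers at 2-fold, which were CHST9, KIT, HCRTR2 and SV2C, and the list summed to 385 CPM. UNC5B was at 201 CPM there and at 28.6 CPM or less in the other subclusters. GPR149, an orphan receptor, was at 83.8 CPM, and PTHLH, parathyroid hormone-like hormone, at 18.2 CPM. PLEKHD1 was at 99.1 CPM and CHRNA5, a nicotinic receptor subunit, led the cluster.

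Subclusters 2 (106 nuclei) and 7 (75 nuclei) had low ERBB4 and high CACNA2D3, at 2295 and 1937 CPM, against 552 CPM over all LHX6 nuclei. RELN was at 546 and 427 CPM. Subcluster 7 led with NPY at 32.98 CPM and also had DRD2, the dopamine D2 receptor, among its 10 leading genes. Subcluster 2 led with PRSS1 and had RGS6 at 1291 CPM. Subcluster 8 (65 nuclei) led with EYA4 and had NOS1, neuronal nitric oxide synthase, at 747 CPM, SV2C at 297 CPM and HTR2C at 703 CPM, 5 of 7 LAMP5 LHX6 markers at 2-fold, with no LAMP5 UMI by the gate. Subcluster 9 (56 nuclei) led with PRDM16 and MBP, myelin basic protein, at 1267 CPM, and SLC1A2, a glial glutamate transporter, was at 1177 CPM. In it 38 of 56 nuclei (67.9%) were marked as doublets, against at most 4% in any other subcluster.

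**Figure D4:**
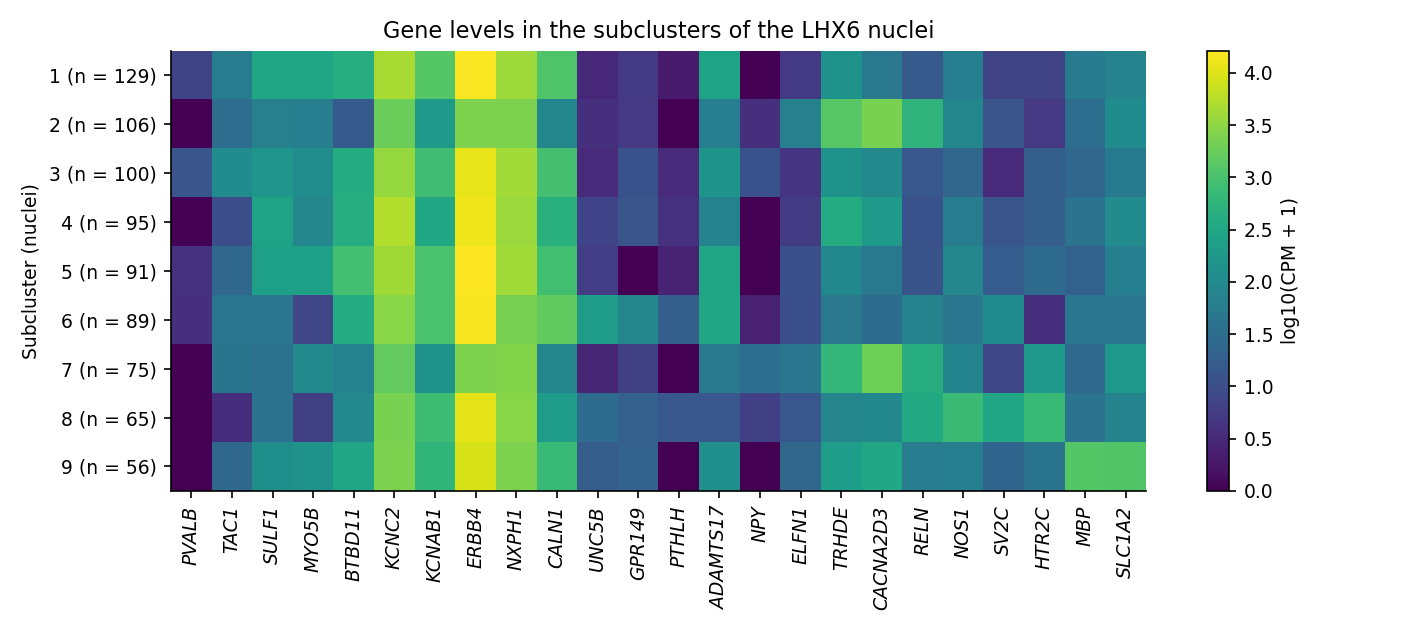
Levels of 24 genes (columns) as log10(CPM + 1) in the 9 subclusters of the LHX6 nuclei (rows, with their number of nuclei). ERBB4 is lowest in subclusters 2 and 7, UNC5B highest in subcluster 6, NOS1 highest in subcluster 8 and MBP highest in subcluster 9.

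Subcluster shares varied between libraries. Subcluster 1 was 44.0% of the LHX6 nuclei in library 2, 36.5% in library 1 and 7.64% to 27.3% elsewhere. Subcluster 7 was absent in library 1 and reached 13.9% in library 6. Library 1 to 4 counts rest on 50 to 74 nuclei each, and the clustering used no correction between libraries, so a subcluster that is mostly of some libraries may reflect those libraries.

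**Figure D5:**
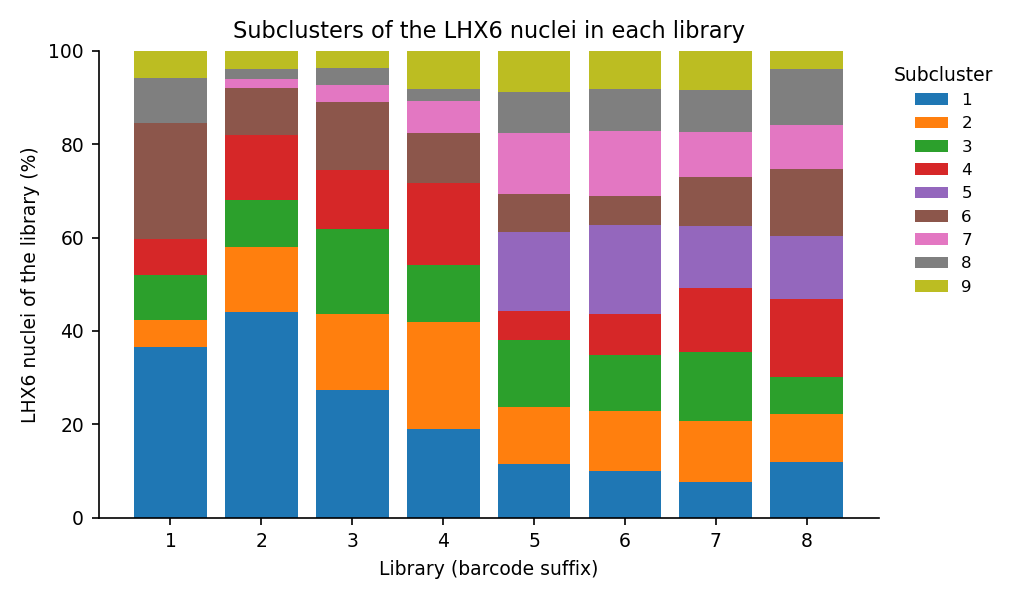
Share of each of the 9 subclusters among the LHX6 nuclei of libraries 1 to 8 (stacked bars, percent). At this resolution subcluster 5 appears in libraries 5 to 8 only, and subcluster 1 is largest in libraries 1 and 2.

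The 18 PVALB-positive LHX6 nuclei were set beside the 788 without PVALB. They were deeper, with a median of 9368.5 UMIs against 7028.5 in nuclei without PVALB, and no library held 50 of them. The contrast is given as a description, and no call was made. CAPS2, a calcyphosine-like calcium-binding protein, had 71.6 CPM in PVALB-positive nuclei and 13.2 CPM in PVALB-zero nuclei (5.41-fold, 2.83 to 9.62). TAC1 had 86.9 CPM in PVALB-positive nuclei and 42.4 CPM in PVALB-zero nuclei. KCNAB1 had 1335 CPM in PVALB-positive nuclei and 686 CPM in PVALB-zero nuclei. HAPLN1, a link protein of perineuronal nets, had 66.5 CPM in PVALB-positive nuclei and 29.4 CPM in PVALB-zero nuclei. Of other net genes, NCAN, BCAN, ACAN and HAPLN4 had lower values in PVALB-positive nuclei, but the interval of each ratio included 1. It was 0.00591 to 1.33 for NCAN, 0.0649 to 2.01 for BCAN, and 0 to 5.78 for ACAN and for HAPLN4. NCAN had 5.11 CPM in PVALB-positive nuclei and 21.7 CPM in PVALB-zero nuclei. BCAN had 10.2 CPM in PVALB-positive nuclei and 18.8 CPM in PVALB-zero nuclei. ACAN and HAPLN4 each had 0 CPM in PVALB-positive nuclei and 3.57 CPM in PVALB-zero nuclei. These 4 genes had at most 2 UMIs each in PVALB-positive nuclei. TNR had 383 CPM in PVALB-positive nuclei and 317 CPM in PVALB-zero nuclei. CACNA2D3 had 61.4 CPM in PVALB-positive nuclei and 568.3 CPM in PVALB-zero nuclei. All 18 PVALB-positive nuclei lay in subclusters 1, 3, 5 and 6. None lay in subcluster 7 or in subcluster 2, where CACNA2D3 was highest, at 2295 CPM. The part of the subclusters in this contrast was not tested. NXPH1 and ERBB4 had 3426 and 10804 CPM in PVALB-positive nuclei, against 3290 and 10869 CPM in PVALB-zero nuclei. These genes were picked after their values were seen, and the contrast compares 18 nuclei of 1 sample.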

How the data were processed

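The deposited matrix held raw UMI counts for 21748 genes and 59749 nuclei, written by software version 3.1.0 per the file headers. CASAVA 1.8 and Seurat are named with Cell Ranger in the submitters' processing notes. The genome build is not given in the sources used here. Gene symbols came from the files, and 705 genes without a unique symbol were renamed from a supplied table or by ID. No source ties barcodes to samples, so the matrix counts as 1 sample, and no test across samples was run. Members and gene lists were chosen with earlier results of these data known.

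Counts were summed per population, divided by all UMIs of that population and given as CPM, the value per 1000000 UMIs. A gene was tested when it reached 10 CPM in the higher population, and called at 2-fold with the same direction in every library that had 50 nuclei of both populations. Ratio intervals are conditional binomial, level intervals Poisson and share intervals Clopper-Pearson, all exact at 95% and for counting error only. A share of 0 was bounded with 3 counts. Thinning drew 3000 UMIs per nucleus. Doublets were scored per library with Scrublet at 0.8% per 1000 nuclei, which marked 4.18% to 7.75%, and were kept. Subclusters came from 1500 variable genes without the listed genes, 20 principal components, 15 neighbours and Leiden resolution 0.5, with no correction between libraries; leading genes had at least 20 CPM. For each comparison the text could name, per list and direction, the 2 called genes with the highest fold, the 8 called genes of largest fold over all genes per direction, and the markers and the basket-cell, chandelier-cell and perineuronal net genes; genes outside this are said to be chosen after their values were seen, as are the genes of the subclusters. Some genes that this rule names are not reported here. The call procedure was tested on simulated data that held counting error only, so this does not bear on the spread between libraries. Python 3.11.15, numpy 2.4.6, scipy 1.17.1, pandas 2.3.3, scanpy 1.11.5, leidenalg 0.10.2, matplotlib 3.10.9 and R 4.3.3 were used, with edgeR 4.0.16 for scaling factors only.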

Additional observations from a re-analysis of the deposited data

Results flagged for a closer look

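Subcluster 6, which led with CHRNA5 and UNC5B, made up 25% of the LHX6 nuclei in library 1 (13 of 52). The next highest library had 14.5%, the median was 10.6% and the lowest was 6.33%. The gap to the next library was 0.56 of the whole range, above the 95% critical value of 0.526 for 8 values. That critical value takes no account of the LHX6 nuclei behind each share, which were 50 to 158 per library. The share of subcluster 6 was 1 of 18 values examined in this way, and chance sets apart about 1 in 20.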

How the results depend on the processing

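No paired analysis was possible because no source ties the libraries to samples; for the same reason the edgeR, DESeq2 and replicate block fits of sevoflurane against control were not run. Alternatives of the PVALB-positive comparison were not run because it made no calls. No call of a named gene reversed its direction under the alternatives run, but the log2 ratio of some uncalled genes changed sign, such as MYO5B against SST nuclei (-0.07 to 0.16) and GPR149 against LAMP5 LHX6 nuclei (-0.42 to 1.10) and ADARB2 nuclei (-0.09 to 0.25). Leaving out each library in turn gave 124 to 132 genes higher and 107 to 121 lower against SST nuclei, 457 to 511 and 409 to 458 against LAMP5 LHX6 nuclei, 245 to 269 and 367 to 389 against ADARB2 nuclei, and a PVALB share of 1.64% to 2.72%. With no filter on CPM, 3214 genes were higher and 1744 lower against LAMP5 LHX6 nuclei, where no library could be checked. With at least 2 LHX6 UMIs, 172 genes were lower against SST nuclei (4 libraries checked), 703 were higher against LAMP5 LHX6 nuclei, and the PVALB share was 3.76%. With SST nuclei limited to at least 3 SST UMIs and LHX6, chosen after seeing the data, 383 genes were higher and 278 lower, with no library checked, so that these calls rest on fewer conditions. Thinning to 3000 UMIs gave a PVALB share of 0.758%. Without subcluster 9, also chosen after seeing the data, 133 genes were higher and 156 lower against SST nuclei (6 libraries checked). Of named calls, 13 of 38 against SST nuclei, 11 of 60 against LAMP5 LHX6 nuclei and 8 of 60 against ADARB2 nuclei were lost under at least 1 alternative; the cause was not tested. Resolutions of 0.3 and 1.0 gave 8 and 13 subclusters. PVALB rests on 20 UMIs in all, and low level and low depth cannot be told apart for single nuclei.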
